A study of Mus musculus with 6 samples.

Results

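Solute carriers are the largest superfamily of membrane transporters, and their genes were examined in lung endothelial cells (EC), the cells that line the blood vessels of the lung. Members were taken by name only: every symbol of the expression table that began with Slc and a digit was included, except Slc2a1 and Slc4a1, and where a gene had several transcript rows the row with the highest mean over all libraries was kept. This gave 195 of the 12623 genes in the table, and 51 of the members had more than 1 transcript row. EC were compared between infant C57BL/6N mice (3 libraries), at an age of vessel growth, and young adult C57BL/6N mice (3 libraries), in which EC are largely quiescent, to ask which genes change as the vessels mature. The study's text places the infant mice in the second week after birth and the young adults at about the third month, and the labels name neither a treatment nor an engineered allele in either group. According to the study's methods, EC were sorted from digested lungs as living CD31+ CD34+ cells without PTPRC, LYVE1, LY76 and PDPN. Whether a library came from 1 mouse or from several was not given in the sources used here, so p-values measure the spread between these libraries. The Y-linked transcripts Ddx3y and Eif2s3y were present in all infant libraries (16.5 to 21.9 RPKM and 15.1 to 19.3 RPKM) and listed at 0 in all 3 young adult ones. The study's methods name female mice, which the infant values go against. Age and the sex of the mice therefore cannot be told apart in any comparison that follows.

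Solute carriers move small molecules across membranes by facilitated diffusion, by exchange, or by coupling uphill transport to a gradient of sodium, protons or chloride. Families are numbered by sequence, and a number usually marks a kind of cargo: SLC25 proteins carry metabolites across the inner mitochondrial membrane, SLC35 proteins bring nucleotide sugars into the endoplasmic reticulum (ER) and Golgi, and SLC7 light chains form amino acid transporters with a heavy chain of the SLC3 family. In the lung, EC are known to clear noradrenaline, serotonin and adenosine from the blood that passes through the capillaries. In all, 5 members carry the name without being transporters, namely the scaffold genes Slc9a3r1 and Slc9a3r2, the adaptor gene Slc4a1ap, the neighbour gene Slc7a6os and the pseudogene Slc2a4rg-ps. They were kept because the rule is by name.

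Levels were given as RPKM, reads scaled by transcript length and by the size of the library, which allows genes to be compared, but read depth is unknown. Values of single libraries are listed below for replicates 1, 2 and 3 in turn, infant before young adult. Infant replicate 2 stood apart from the other infant libraries, with Pearson correlations across genes of 0.963 and 0.964 to them on the log2(RPKM + 1) scale against 0.987 between infant replicates 1 and 3. To young adult replicates 1, 2 and 3 its correlations were 0.949, 0.961 and 0.963, close to those within its own group. Those of infant replicates 1 and 3 to young adult libraries were 0.8965 to 0.9117. Globin transcripts took 3.41% to 23.5% of the RPKM total in infant and at most 0.487% in young adult libraries. All 10 endothelial markers were detected in every library, and their summed level was 2842, 3789 and 2586 RPKM at the infant age and 4111 to 4446 RPKM at the young adult age. The 10 fibroblast markers summed to 1291, 335.5 and 909.2 RPKM in infant and 10.4 to 24.0 RPKM in young adult libraries, and the 10 mural markers to 238.1, 70.1 and 238.0 RPKM against 12.1 to 16.5 RPKM. Summed epithelial markers (12 of 13 listed) ranged from 6469 to 11346 RPKM in infant and from 1824 to 8386 RPKM in young adult libraries, and leukocyte markers (10 of 13) from 331.1 to 528.1 and from 142.0 to 564.6 RPKM. Lyz2 held most of the leukocyte sum, at 275.3, 467.1 and 330.2 against 134.3, 285.6 and 515.5 RPKM. In the test described below, 3 of the 10 leukocyte and 3 of the 12 epithelial markers were called lower and 0 higher. Over all genes 8.1% were called lower. No marker of these 5 lists was at 0 in all young adult libraries. In bulk samples such as these, fewer cells of a type and less RNA per cell cannot be told apart.

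Most solute carrier genes differed little between the ages, a few abundant ones rose and a larger number of weakly expressed ones fell. Slc6a2 (noradrenaline uptake) and Slc3a2 (the heavy chain of amino acid transporters) were clearly higher in young adult EC, by 9.54-fold and 3.33-fold in mean RPKM. The chloride importer gene Slc12a2 and the fatty acid transporter gene Slc27a1 were clearly lower, at 0.369 and 0.0826 of their infant means. A total of 190 members reached 1 RPKM in at least 1 library and were tested, and 21 of them (11.1%) were called, which means a limma adjusted p under 0.05 over all 12458 genes tested and a log2 fold change on the log2(RPKM + 1) scale beyond 0.81 in size, which is the fold threshold of the study's methods. Over all genes tested, 11.4% were called. The other 5 members, Slc2a6, Slc6a4, Slc12a8, Slc28a2 and Slc39a2, stayed under 1 RPKM throughout. In young adult EC 6 members (3.16%) were higher and 15 (7.89%) lower, where all genes gave 3.33% and 8.1%. The members were thus called at about the rate of any gene, and their median log2 fold change was -0.13 against -0.07 for all genes. Quantile normalization turned both medians positive (0.07 and 0.04), and the call count of members was then 11, with 6 higher and 5 lower, so that the higher share of the calls went from 28.6% to 54.5%. Of these 11 members 10 were among the 21, and the 6 higher ones were not all the same genes as before.

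The sets of values did not overlap between the groups in 72 members (37.9%), against 43.4% of all genes. For 136 members (71.6%) the 95% confidence interval of the log2 fold change lay entirely inside that threshold in either direction, close to the 72.5% of all genes. Direction and level went together, in members as in all genes. Among the 84 tested members with a mean of at least 5 RPKM, 6 were called higher and 3 lower, and over all 6984 genes at that level 314 were higher and 352 lower. Among the 106 weaker members none was called higher by limma (9 had an unadjusted p under 0.05 and a higher young adult level) and 12 were lower. Over all 5474 weaker genes 101 were called higher and 657 lower. For 30 members (15.4% of 195, and 9.38% of all genes) 1 RPKM was reached by infant libraries alone. The opposite held for Slc15a3 and Slc22a18 (1.03%, and 1.62% of all genes).

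The level of the 195 members spanned from under 1 RPKM (30 members by their mean) to over 100 RPKM (4 members), with a median mean of 3.95 RPKM against 6.12 RPKM for all genes. Together they made up 0.81%, 0.866% and 0.658% of the RPKM total at the infant age and 0.909% to 0.963% in young adult libraries. Without the globin genes these shares were 0.91%, 0.897% and 0.86% against 0.913% to 0.968%. The young adult libraries thus lay above the infant ones by a small margin on both bases. Both bases count the 5 members that are not transporters. By library, these 5 added up to 155.5, 234.8 and 150.0 against 284.3, 282.6 and 304.6 RPKM. For the transporters alone, the young adult shares still lay above the infant ones with the globin genes counted. Without the globin genes the shares of the transporters alone overlapped between the groups. The 10 most abundant members held 40.4% to 45.7% of the members' sum in infant and 51.6% to 53.2% in young adult EC.

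The most abundant member was Slc9a3r2, a scaffold gene and no transporter, at 140.2, 221.3 and 137.0 against 268.0, 265.7 and 288.0 RPKM. It was higher with an adjusted p of 0.0288 but stayed under the fold threshold (log2 fold change 0.75 ± 0.20, SE). Slc25a5 ranked next, followed by Slc43a3, described further on, and Slc25a4. Slc25a5 and Slc25a4 encode mitochondrial ADP/ATP carriers. Slc25a5 measured 212.8 ± 22.3 and 200.5 ± 5.71 RPKM (SD, n = 3 each) and Slc25a4 169.8 ± 21.4 and 148.8 ± 16.9 RPKM in infant and young adult EC. Neither differed beyond the spread, with 95% intervals of the log2 fold change from -0.37 to 0.21 and from -0.52 to 0.14. The choline transporter gene Slc44a2 was steadier still, at 68.4 ± 1.97 and 66.0 ± 5.73 RPKM (interval -0.29 to 0.19). Slc29a1, which encodes the equilibrative nucleoside transporter that takes up adenosine, measured 58.7, 66.6 and 64.5 against 83.3, 97.3 and 94.7 RPKM. The groups did not overlap, and the 1.45-fold difference had an adjusted p of 0.0143 but was under the fold threshold (0.53 ± 0.11). Slc35b1 (57.2 ± 6.87 and 67.2 ± 9.21 RPKM) and the peroxisomal SLC25 member Slc25a17 (59.6 ± 5.72 and 64.8 ± 1.51 RPKM) did not pass the test.

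**Figure D1:**
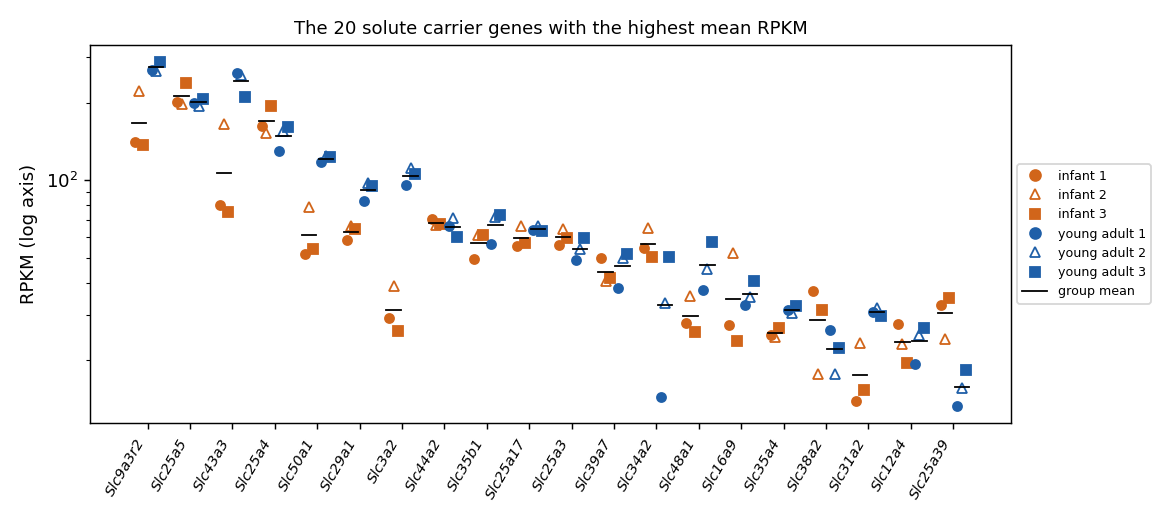
RPKM (log axis) of the 20 solute carrier genes with the highest mean level in each infant (orange) and young adult (blue) library, with group means as bars. Slc25a5, Slc25a4 and Slc44a2 sat at about the same level at both ages, whereas Slc43a3, Slc50a1 and Slc3a2 were higher in all young adult libraries than in any infant library.

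Among the 6 members called higher, the largest rise was that of Slc6a2 (chromosome 8, 92960470 to 93001667, mm10 coordinates here and below), which encodes the transporter that removes noradrenaline from the extracellular space. It measured 4.6, 3.7 and 3.0 RPKM in infant EC, and the young adult libraries held 45.6, 35.6 and 26.6 RPKM. Every young adult library lay far above every infant library, and infant replicate 2 lay between the other infant libraries. The log2 fold change was 2.93 ± 0.20 (SE) with an adjusted p of 0.000455. The other monoamine transporter gene of the lung endothelium, Slc6a4 (serotonin uptake), measured at most 0.3 RPKM in infant and 0.4 RPKM in young adult libraries and was not tested.

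Slc3a2 (chromosome 19, 8706882 to 8723369) encodes CD98 heavy chain, a subunit that does not transport by itself but brings SLC7 light chains to the cell surface. It measured 29.3, 38.8 and 26.0 against 96.3, 111.1 and 105.5 RPKM, a log2 fold change of 1.72 ± 0.15 with an adjusted p of 0.000998. Both of its transcript rows gave the same ratio (1.70 as the log2 of the ratio of mean RPKM). Of the light chain genes, Slc7a6 and Slc7a7, whose products exchange cationic for neutral amino acids, were in the table. Slc7a7 did not move with the heavy chain, at 12.2, 12.1 and 12.5 against 13.5, 13.2 and 11.4 RPKM, and its interval (-0.18 to 0.26) excludes a change of the size seen in Slc3a2. Slc7a6 measured 6.5, 3.4 and 7.2 RPKM against 3.6, 4.1 and 2.3 RPKM, with overlapping groups (-0.60 ± 0.26, adjusted p 0.124). The sum of both light chains was 15.5 to 19.7 RPKM in infant and 13.7 to 17.3 RPKM in young adult EC. Slc7a5 and other light chains were not analysed here.

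Slc43a3 (chromosome 2, 84936545 to 84958509), which encodes a purine nucleobase transporter, measured 80.5, 165.6 and 75.2 against 261.6, 256.7 and 209.5 RPKM (1.26 ± 0.29, adjusted p 0.0194). Infant replicate 2 was about midway between the other infant libraries and the young adult ones. Slc50a1 (chromosome 3, 89268246 to 89270591), the single sugar transporter gene of the SWEET family in mammals, rose from 51.9, 78.5 and 54.2 to 117.3, 123.8 and 123.0 RPKM (0.99 ± 0.16, adjusted p 0.00672). The young adult values were tightly grouped and all were above the highest infant value. Slc31a2 (chromosome 4, 62280393 to 62298412), a copper transporter gene of intracellular membranes, measured 13.9, 23.3 and 15.3 against 30.8, 32.0 and 29.8 RPKM (0.82 ± 0.18, adjusted p 0.0164), just past the fold threshold. Its call was lost under quantile normalization and when libraries were scaled without the globin genes.

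Of these, Slc6a2, Slc3a2 and Slc50a1 were called in all 6 fits that each left out 1 library. Slc31a2 and Slc43a3 were called in 2 of them, those that left out infant replicate 2 or young adult replicate 3, and Slc12a7, described next, in 4. Infant replicate 2 was the highest infant library in 4 of the 6 members, as in 83.1% of all genes called higher, and it also had the highest summed endothelial markers of the infant group. When libraries were scaled to equal sums of the 10 endothelial markers, an alternative chosen after seeing the data that moved the median of all genes to -0.49, only Slc6a2 and Slc3a2 of these 6 were still called higher. Their log2 fold changes were then 2.49 and 1.22. The part of the endothelial share of each library in the other rises was not tested.

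**Figure D2:**
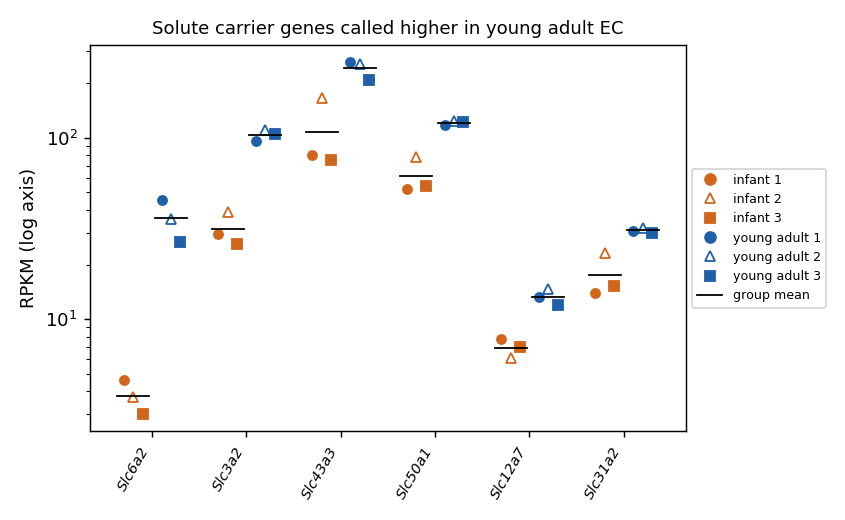
RPKM (log axis) of the 6 solute carrier genes called higher in young adult EC, per library, with group means as bars and infant replicate 2 as open orange triangles. All young adult libraries lay above all infant libraries in each gene, from 26.6 RPKM upwards against at most 4.6 RPKM for Slc6a2, and infant replicate 2 was the infant library nearest to them in Slc3a2, Slc43a3, Slc50a1 and Slc31a2.

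Promoter sequence was examined in the 250 bases before transcription starts that a RefSeq promoter table lists (GRCm38.p6, whose positions equal those of mm10) for 146 members with an entry, among them 4 of the 6 called higher and 12 of the 15 called lower. Matches on either strand were sought to the amino acid response element (TGATGNAA), the antioxidant response element (TGACNNNGC), the metal response element (TGCNCNC) and the GC box (GGGCGG), of which the last was added after the data had been seen. Gene positions in the text span all RefSeq transcripts of a gene, so a listed start can lie inside them, as for Slc12a7, Slc3a2 and Slc31a2, and it was not tested whether the measured transcript row begins there. Matches to different motifs may overlap. The amino acid response element was present in 2.74% of the 146 members, in 2.42% of the 9137 genes of the expression table with an entry and in 3.91% of all 27025 RefSeq genes with one. In the same order, the shares were 19.2%, 14.1% and 11.5% for the antioxidant response element and 56.8%, 56.5% and 47.2% for the metal response element. The GC box was present in 69.2%, 63.1% and 35.4%. Members were thus closer to the genes of the expression table than to all RefSeq genes in each motif. Taking the most GC-rich window of each gene, the median GC content was 62.0%, 60.8% and 52.8%. The windows of the 4 genes with an entry that were called higher are printed next. Those of 2 genes follow, the largest falls among genes with 1 RefSeq start that were called in every fit without 1 library. This choice was made after the values were seen. Each window runs 5′ to 3′ on the strand of the gene, with motif matches in capitals. They lie at chr19:8713898-8714147 (Slc3a2, minus strand), chr3:89270571-89270820 (Slc50a1, minus), chr4:62286179-62286428 (Slc31a2, plus), chr13:73763410-73763659 (Slc12a7, plus, the first of 2 starts), chr2:84840073-84840322 (Slc43a1, plus) and chr9:94669642-94669891 (Slc9a9, plus).
Slc3a2: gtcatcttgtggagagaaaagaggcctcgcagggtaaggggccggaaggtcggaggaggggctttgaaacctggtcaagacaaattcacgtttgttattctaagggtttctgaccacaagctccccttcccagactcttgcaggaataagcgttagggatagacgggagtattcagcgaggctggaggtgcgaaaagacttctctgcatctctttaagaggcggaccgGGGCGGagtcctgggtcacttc
Slc50a1: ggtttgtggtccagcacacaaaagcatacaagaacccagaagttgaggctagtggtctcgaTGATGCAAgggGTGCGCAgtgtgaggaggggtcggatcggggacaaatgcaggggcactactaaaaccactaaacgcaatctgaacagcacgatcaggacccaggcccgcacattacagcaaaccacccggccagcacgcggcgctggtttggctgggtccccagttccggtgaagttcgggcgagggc
Slc31a2: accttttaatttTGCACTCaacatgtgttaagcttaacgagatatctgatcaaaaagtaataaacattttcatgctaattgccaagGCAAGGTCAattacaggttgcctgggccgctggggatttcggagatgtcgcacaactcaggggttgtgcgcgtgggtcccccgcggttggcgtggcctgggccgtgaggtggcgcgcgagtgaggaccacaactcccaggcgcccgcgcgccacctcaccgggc
Slc12a7: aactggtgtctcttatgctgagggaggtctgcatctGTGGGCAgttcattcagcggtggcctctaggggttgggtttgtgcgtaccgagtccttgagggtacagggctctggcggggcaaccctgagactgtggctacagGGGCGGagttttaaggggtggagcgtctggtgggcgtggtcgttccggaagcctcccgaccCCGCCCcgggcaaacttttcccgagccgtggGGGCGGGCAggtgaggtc
Slc43a1: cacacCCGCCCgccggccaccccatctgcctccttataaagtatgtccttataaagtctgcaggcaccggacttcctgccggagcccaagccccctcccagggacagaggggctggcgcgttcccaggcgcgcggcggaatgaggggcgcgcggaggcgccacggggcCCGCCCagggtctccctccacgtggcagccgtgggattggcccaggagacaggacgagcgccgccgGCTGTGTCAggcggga
Slc9a9: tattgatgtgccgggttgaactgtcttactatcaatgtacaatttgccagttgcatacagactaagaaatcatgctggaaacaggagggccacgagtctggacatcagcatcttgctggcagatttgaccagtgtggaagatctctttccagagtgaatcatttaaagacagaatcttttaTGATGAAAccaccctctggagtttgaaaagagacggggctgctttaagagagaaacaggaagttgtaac

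The window of Slc3a2 held 1 GC box and no match to the 3 response elements. Slc50a1 held an amino acid response element followed after a few bases by a metal response element, Slc31a2 an antioxidant and a metal response element, and Slc12a7 a total of 3 GC boxes and 2 metal response elements. Among the genes that fell, Slc43a1 held an antioxidant response element and 2 GC boxes, and Slc9a9 an amino acid response element in a window with a GC content of 42.8%. The amino acid response element was thus found in 1 gene that rose and in 1 that fell among the 16 called members with an entry, and these matches describe letters only.

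Of the cation-chloride cotransporters, which set the chloride content and the volume of cells, 1 member fell and 1 rose past the threshold. Slc12a2 (chromosome 18, 57878512 to 57946821) encodes NKCC1, which loads cells with sodium, potassium and chloride. It measured 12.9, 16.9 and 14.1 against 5.5, 4.3 and 6.4 RPKM (-1.29 ± 0.15, adjusted p 0.00209), with no overlap, and here infant replicate 2 was the highest of all. Slc12a7 (chromosome 13, 73733052 to 73816754) encodes KCC4, which lets potassium and chloride out. It measured 7.8, 6.1 and 7.0 against 13.2, 14.7 and 11.9 RPKM (0.84 ± 0.12, adjusted p 0.00407). From these values, picked after they had been seen, the ratio of Slc12a2 to Slc12a7 was 1.65, 2.77 and 2.01 against 0.417, 0.293 and 0.538. The KCC1 gene Slc12a4 did not pass the test (23.5 ± 4.11 and 23.8 ± 3.86 RPKM, interval -0.36 to 0.39). Slc12a2 was called lower in every fit without 1 library and under each scaling. Slc12a7 lost its call when infant replicate 2 or young adult replicate 2 was left out, and when libraries were scaled without the globin genes or to the endothelial markers. The sodium-calcium exchanger gene Slc8a1 fell from 1.97 ± 0.153 to 0.833 ± 0.153 RPKM, with an adjusted p of 0.00952 and a log2 change of -0.70 ± 0.13 that stayed under the fold threshold.

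Among the 15 members called lower, most were weakly expressed: 11 had an infant mean under 5 RPKM and 9 a young adult mean under 1 RPKM, where values carry a rounding step of 0.1 and the fitted fold change is understated. The largest fall on the log2(RPKM + 1) scale was that of Slc27a1 (chromosome 8, 71568728 to 71587307), a fatty acid transport protein gene, from 5.5, 1.8 and 3.6 RPKM in infant to 0.1, 0.4 and 0.4 RPKM in young adult libraries (-1.76 ± 0.29, adjusted p 0.00672). Infant replicate 2 was the lowest infant value but still above the young adult ones. At higher levels, Slc25a39 (chromosome 11, 102402969 to 102408675), needed for glutathione import into mitochondria, measured 32.7, 24.2 and 35.1 RPKM against 13.3, 15.7 and 18.3 RPKM (-0.91 ± 0.17, adjusted p 0.00959). Slc22a23 (chromosome 13, 34179158 to 34345275), an orphan of the organic ion transporters, measured 16.5, 23.7 and 16.7 RPKM against 8.1, 9.0 and 12.3 RPKM (-0.89 ± 0.19, adjusted p 0.0148). Slc25a42 (chromosome 8, 70184340 to 70212281), a mitochondrial coenzyme A carrier gene, measured 7.8, 2.6 and 6.2 RPKM against 1.3, 2.0 and 1.9 RPKM (-1.17 ± 0.31, adjusted p 0.0303), so that infant replicate 2 lay close to the young adult values.

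Infant replicate 2 was the lowest infant library in 12 of the 15 members called lower and the highest in Slc12a2, Slc1a5 and Slc22a23. Over all genes called lower it was the lowest in 77.9%, and the summed fibroblast and mural markers given above were lowest in the same library, as were the erythroid markers (7 of 13 listed), at 9656 RPKM against 30427 and 79864 RPKM in the other infant libraries and 822.2 to 1351 RPKM in young adult ones. All 7 erythroid markers were called lower. Their part in these falls was not tested. Without infant replicate 2, 20 members were called lower. In all 6 fits without 1 library 5 of the 15 were called, namely Slc27a1, Slc12a2, Slc43a1, Slc9a9 and Slc41a3. Slc43a1 (1.7, 1.2 and 2.7 against 0.1, 0.2 and 0.3 RPKM) encodes a transporter of large neutral amino acids, Slc9a9 (2.0, 1.0 and 2.4 against 0.1, 0.3 and 0.3 RPKM) an endosomal sodium-proton exchanger, and Slc41a3 (3.7, 3.1 and 4.1 against 1.2, 1.4 and 1.7 RPKM) a magnesium transporter. In each of the 3 the groups were fully separated. Under quantile normalization 5 members were called lower, among them Slc12a2, Slc27a1 and Slc43a1, but not Slc9a9 and Slc41a3.

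**Figure D3:**
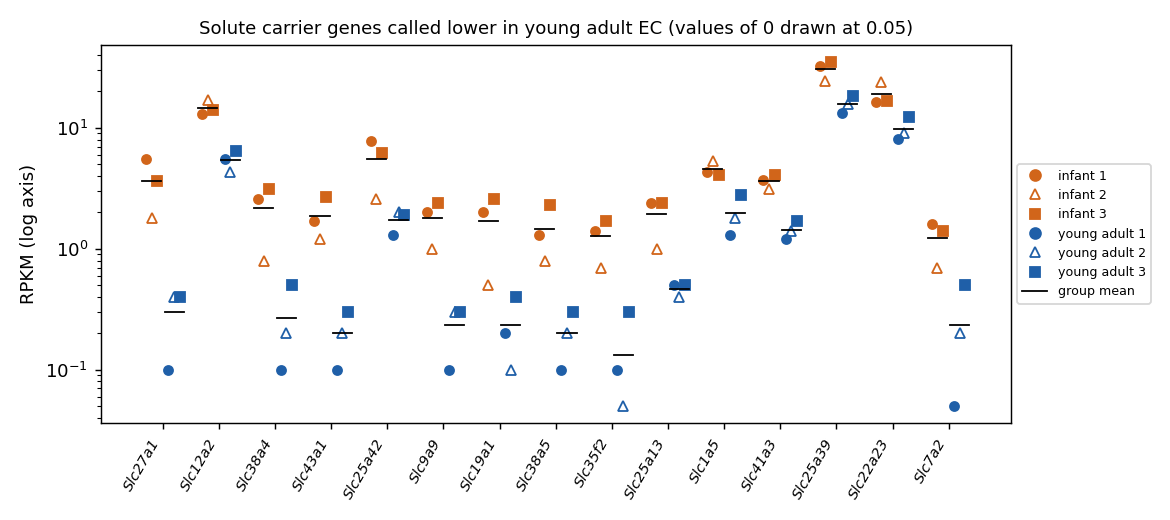
RPKM (log axis, values of 0 drawn at 0.05) of the 15 solute carrier genes called lower in young adult EC, per library, with group means as bars. Only Slc12a2, Slc25a39 and Slc22a23 exceeded 10 RPKM in any library, and infant replicate 2 (open orange triangles) was the lowest infant library in 12 of the 15 genes.

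Members were then grouped by cargo. Amino acid transporters (22 tested) had 1 member called higher, Slc3a2, and 5 lower. Their median change was -0.38 (log2) and that of all genes -0.07. Over all genes 3.33% were called higher and 8.1% lower, shares against which the counts of each group below are to be read. Level matters as well, since all 5 lower amino acid transporters had a mean under 5 RPKM. At that level 657 of 5474 genes were called lower, and the median of those genes was -0.19. The lower ones were Slc38a4 (-1.25) and Slc38a5 (1.3, 0.8 and 2.3 against 0.1, 0.2 and 0.3 RPKM), sodium-coupled carriers of neutral amino acids, Slc43a1 (-1.23), Slc1a5 (-0.93) and Slc7a2 (-0.85). Slc1a5, which encodes the glutamine transporter ASCT2, measured 4.3, 5.3 and 4.1 against 1.3, 1.8 and 2.8 RPKM (adjusted p 0.0136), and infant replicate 2 was again the highest. Slc7a2, a carrier of arginine, was at most 1.6 RPKM in infant and 0.5 RPKM in young adult EC. Slc7a1, the other arginine carrier gene, measured 0.867 ± 0.115 and 0.733 ± 0.153 RPKM (interval -0.43 to 0.22). The next most abundant member of the group after Slc3a2, the neutral amino acid carrier gene Slc38a2, had overlapping values of 37.1, 17.8 and 31.4 RPKM and 26.3, 17.8 and 22.3 RPKM (adjusted p 0.396). The group's median stayed negative and below that of all genes under each scaling and in each fit without 1 library, between -0.82 and -0.24, but 1 member was called lower under quantile normalization and likewise without young adult replicate 1 or 2. Its summed level went the other way, from 144.4, 127.7 and 128.4 RPKM to 172.8, 187.2 and 182.4 RPKM, since Slc3a2 alone holds most of the sum in young adult EC.

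Genes of the amino acid response, which ATF4 induces when amino acids are scarce, were looked at beside these transporters. Of 16 tested genes 5 were called lower and none higher by limma (1 at an unadjusted p under 0.05), where 8.1% of all genes were lower. Phgdh and Psat1, which encode enzymes of serine synthesis, had log2 fold changes of -1.37 and -1.12, Aldh18a1 (proline synthesis) of -1.27, Vldlr of -0.85 and Nupr1 of -2.59. In all 5 the lowest infant value was that of replicate 2, as for Aldh18a1 (11.2, 3.6 and 8.9 RPKM). The part of other cell types in these falls was not tested. Asns, which encodes asparagine synthetase, measured 12.9, 20.1 and 16.3 against 22.6, 29.5 and 35.1 RPKM, a change of 0.79 ± 0.20 (adjusted p 0.0256) just under the fold threshold, and Atf4 itself did not pass the test (0.06 ± 0.14, adjusted p 0.796).

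Mitochondrial carriers formed the largest group (37 tested), with none called higher (limma, where 5 had an unadjusted p under 0.05 and a higher young adult level) and 3 lower, Slc25a39, Slc25a42 and Slc25a13. The last encodes citrin, the aspartate-glutamate carrier, and measured 2.4, 1.0 and 2.4 RPKM against 0.5, 0.4 and 0.5 RPKM. Of the 6 fits without 1 library, Slc25a39 was called in 5, and Slc25a42 and Slc25a13 in 1 each. The group's median was -0.09, and its summed level was 738.9 ± 38.3 RPKM in infant and 678.4 ± 33.9 RPKM in young adult EC. Because the group follows the family number, this sum includes the peroxisomal member Slc25a17 (59.6 ± 5.72 and 64.8 ± 1.51 RPKM). Slc25a3, the mitochondrial phosphate carrier, did not pass the test (60.2 ± 4.36 and 54.3 ± 5.31 RPKM, interval -0.41 to 0.11). The mitochondrial iron importer gene Slc25a37, abundant in red cell precursors, measured 4.9, 3.9 and 5.6 against 7.9, 5.8 and 6.0 RPKM, and did not pass the test (adjusted p 0.101).

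Metal transporters (25 tested) gave Slc31a2 higher and Slc41a3 lower, with a median of -0.08. The plasma membrane copper importer gene Slc31a1 went down, with means of 18.0 ± 2.29 and 12.9 ± 1.56 RPKM (-0.45 ± 0.13, adjusted p 0.0364, under the fold threshold), opposite to Slc31a2. The lysosomal heme transporter gene Slc48a1 went up, with means of 29.8 ± 5.18 and 46.8 ± 10.1 RPKM (0.62 ± 0.18, adjusted p 0.04), also under it. The only iron exporter, ferroportin (Slc40a1), measured 14.5, 9.8 and 15.9 RPKM and 7.0, 9.9 and 10.3 RPKM (adjusted p 0.0984). The zinc importer genes looked at did not pass: Slc39a10 measured 16.4 ± 1.96 and 15.4 ± 0.557 RPKM, and Slc39a8 and Slc39a14 stayed at or under 1.5 RPKM in all libraries. Among 17 tested genes of metal handling outside the family none was called higher by limma (1 at an unadjusted p under 0.05) and 5 lower (8.1% over all genes), namely Mt1 (-1.33), Tfrc (-0.81), Trf (-1.72), Heph (-0.95) and Cp (-1.99). Of the infant libraries, replicate 2 was the lowest in Tfrc, Trf, Heph and Cp and the highest in Mt1.

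In the other groups few members were called. Of 22 members placed with the ER and Golgi transporters by family number, 1 was called lower, Slc35f2 (at most 1.7 RPKM). The number alone does not show that Slc35f2 acts in these membranes. In the same group 2 members rose by less than the fold threshold, Slc35a4 (0.29) and the UDP-galactose transporter gene Slc35a2 (0.34). The sum of the 22 was 221.9 ± 5.60 RPKM in infant and 236.6 ± 10.8 RPKM in young adult EC. The 10 sugar transporters gave Slc50a1 higher, and the glucose-6-phosphate transporter gene Slc37a4 rose by 0.55 ± 0.11 (adjusted p 0.0126, under the fold threshold), while the glucose transporter gene Slc2a3, at most 1.6 RPKM, fell by 0.66 on that scale (adjusted p 0.0364, also under it). Vitamin and folate transporters (8 tested) gave the reduced folate carrier gene Slc19a1 lower (-1.04), a call lost in 5 of the 6 fits without 1 library. Of 5 monocarboxylate and dicarboxylate transporters none was called by limma (1 at an unadjusted p under 0.05), and this 1, Slc16a13, was higher with an adjusted p of 0.00828, at 4.8 ± 0.173 and 7.3 ± 0.361 RPKM, which stayed under the fold threshold. Among 16 tested partners of solute carriers, the monocarboxylate transporter chaperone gene Emb (-1.01) and the carbonic anhydrase gene Car2 (-1.35) were called lower. Car2 measured 357.2, 163.4 and 397.9 against 112.2, 123.0 and 100.4 RPKM, lowest in infant replicate 2 among infant libraries, whereas Emb was highest there. The part of other cell types in these falls was not tested. Car14, a membrane-bound carbonic anhydrase gene (14.0, 12.6 and 13.8 against 62.9, 61.8 and 47.3 RPKM), was called higher. The chaperone gene Bsg did not differ beyond its error (-0.03 ± 0.10). Of further members with known endothelial roles, the taurine transporter gene Slc6a6 had overlapping values (34.6, 12.8 and 25.8 against 12.3, 19.3 and 16.0 RPKM, adjusted p 0.283), and the zinc exporter gene Slc30a1 (0.19 ± 0.11, adjusted p 0.209) did not pass the test.

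**Figure D4:**
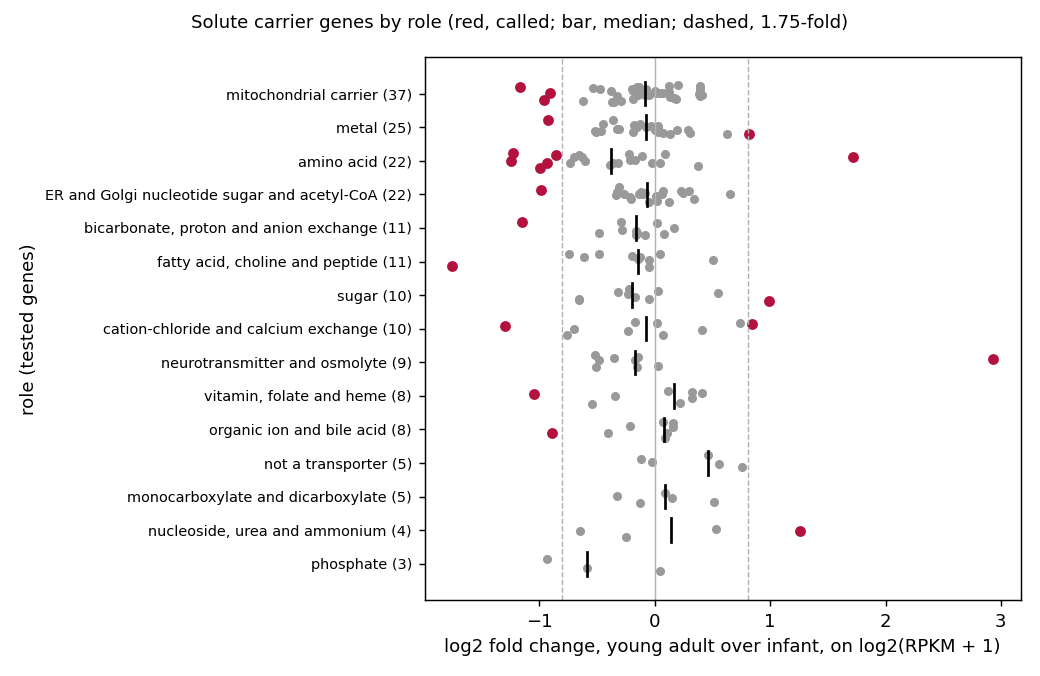
Log2 fold change (young adult over infant, on the log2(RPKM + 1) scale) of each of the 190 tested solute carrier genes, in rows by cargo or role with the number tested in parentheses. Called genes are red, the bar is the group's median and the dashed lines mark the fold threshold; Slc6a2 at 2.93 and Slc3a2 at 1.72 lie far to the right, and amino acid transporters have the most called genes on the left.

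One abundant member marks another cell type. Slc34a2, the phosphate transporter gene of alveolar type 2 cells, measured 54.4, 65.4 and 50.3 against 14.4, 33.3 and 50.4 RPKM, and did not pass the test (-0.93 ± 0.39, adjusted p 0.112). The young adult libraries followed the order of the surfactant gene Sftpc, at 1451, 2827 and 4883 RPKM in young adult replicates 1 to 3 against 3734, 4683 and 4583 RPKM in infant libraries. The epithelial surface marker Epcam was at most 1.1 RPKM in every library. The part of epithelial cells in the values of Slc34a2 was not tested.

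Other families of membrane transporters were compared on the same fit. Of 4 tested Slco genes, which encode organic anion transporters, Slco4c1 was called lower (-0.90). Of 29 tested ATP-binding cassette genes 2 were called higher, Abcb1a (1.12) and Abcg3 (1.28), and 3 lower, Abca1 (-1.53), Abcc9 (-1.73) and Abcd2 (-1.32). Each of the 3 lower ones had its lowest infant value in replicate 2, as for Abcc9 (4.8, 1.5 and 4.1 RPKM). None of 11 tested Mfsd genes was called by limma (2 were higher and 1 lower at an unadjusted p under 0.05, median 0.01).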

How the data were processed

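RNA of sorted lung EC was amplified with the SMARTer Ultra Low kit and sequenced as paired ends. According to the study's methods and the labels, the authors aligned reads to mm10 with STAR and used the RefSeq annotation and DESeq2. The deposited values were RPKM per library, computed by the authors and rounded to 1 decimal, with 17241 transcript rows. The STAR version and the program behind the RPKM were not given in the sources used here. Read depth is unknown and no counting error can be attached. An RPKM depends on all reads of its library, so abundant transcripts lower the others. The table held 0 columns of values of no sample. 

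Groups and replicate numbers came from the library titles. Symbols turned into dates (24 rows) were restored by accession. A count model does not suit RPKM, and the main test was therefore limma 3.58.1 (R 4.3.3) on log2(RPKM + 1) with an intensity trend over genes with at least 1 RPKM in at least 1 library (12458 genes), Benjamini-Hochberg adjustment, an adjusted p under 0.05 and a log2 change beyond 0.81. With this pseudocount the changes of low genes are understated. The fit was tested on simulated data, where 92.5% of 200 genes changed by 1.5 (log2) were recovered and 1 unchanged gene was called. The changed genes were drawn from those above the lowest levels, so this test does not cover weakly expressed members. Members, role groups, marker lists and tests were chosen with earlier results of these data known. Role groups follow family numbers, with exceptions by gene. Named are called members, the 10 with the highest mean, the 12 largest rises and falls at 5 RPKM or more without overlap (6 and 4 existed), members with known endothelial roles, and called genes of related lists. Other genes named for contrast (Slc7a6, Slc7a7, Slc25a3, Slc25a37, Slc34a2 and members with adjusted p under 0.05 but under the fold threshold among them) were chosen after their values were seen. The same-numbered libraries of both ages were not paired. Slc7a5, Slc16a1, Slc22a3 and Slc26a4 were not analysed here. Positions came from RefSeq GRCm38.p6 and promoter sequences from RefSeq, 250 bases before the start. Transcribed bases of 163 of 196 member windows were found in GENCODE transcripts on the given strand and 0 on the other.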

Additional observations from a re-analysis of the deposited data

How the results depend on the processing

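The counts of called members depended mainly on low genes, scaling and single libraries. A pseudocount of 0.1 gave 33 called members (26 lower), 5 gave 5 (1 lower). A test against the fold threshold itself left 2, both higher (Slc6a2 and Slc3a2), and 0 lower by limma, where an unadjusted p under 0.05 with the fold threshold gave 16 lower. Quantile normalization gave 11 called (5 lower) and a median of 0.067. Equal totals without the globin genes gave a median of -0.21 and -0.16 over all genes. Scaling to equal summed endothelial markers, chosen after seeing the data, gave 43 called, 2 higher and 41 lower, with a median of -0.51 and of -0.49 over all genes. Without 1 library the counts ranged from 9 to 28 called, 3 to 8 higher and 5 to 20 lower, and the median from -0.15 to -0.09. Leaving out young adult replicate 1 gave 9 calls, young adult replicate 2 gave 10, infant replicate 3 gave 12, infant replicate 1 gave 13 and infant replicate 2 gave 28. The cause of these shifts was not tested. The other alternatives (no filter, a filter on the mean, equal medians, no trend, array weights, unadjusted p, mean over transcript rows) gave 17 to 26 called. No called member changed sign under any alternative. Slc6a2 and Slc3a2 were called under all 20 alternatives.

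With the replicate number as a block 20 members were called, 6 higher and 14 lower, with a median of -0.13, and all 20 were among the 21. Deviations of same-numbered libraries correlated at 0.03, -0.11 and -0.02, so the number is shared by name only. Depth is unknown, and values under about 1 RPKM are limited by rounding.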
